A study of Mus musculus with 6 samples.

Results

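A set of 10 germline genes that somatic cells keep silent through methylation of their promoters was followed in mouse embryonic stem cells depleted of Ehmt2 (G9a), a methyltransferase that places methyl groups on histone H3 lysine 9. The genes are Dazl, Sohlh2, Taf7l, Tex19.1, Stk31, Fkbp6, Tktl2, Slc25a31, Dpep3 and Tex101. They were chosen by symbol, as germline genes classed outside the meiotic and piRNA pathways. The class is not strict, since Fkbp6 is needed for meiosis in male mice. All 10 are among the 25239 genes in the authors' deposited table. The cells were E14, a mouse embryonic stem cell line grown in N2B27 medium with LIF and 2i. One group received siRNA against Ehmt2 and the other received control siRNA (2 μl of a 40 μM stock in both), and RNA was taken 3 days later. Each group had 3 libraries of polyA-enriched RNA. The submitters label the genotype of the first group EHMT2 knockdown and that of the second WT, and name no other alteration. The labels do not say whether libraries came from separate cultures, so p-values measure only the spread between these libraries, which may be technical.

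Genes of this class carry CpG-rich promoters that gain DNA methylation around implantation and stay methylated in somatic tissue, while germ cells remove the methylation and express them. Polycomb complex PRC1.6, H3K9 methyltransferases and DNA methyltransferases are known to hold such promoters silent. Embryonic stem cells in 2i medium have little DNA methylation, and several of these genes are known to be transcribed in them. DNA methylation was not measured in these libraries.

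After Ehmt2 siRNA 2 of the 10 genes rose and none passed the test as lower. Tktl2, a transketolase-like gene of the testis, rose 5.92-fold (95% interval 4.45 to 7.86). Slc25a31, the ADP/ATP carrier of male germ cell mitochondria also known as Ant4, rose 2.20-fold (1.66 to 2.92). Dpep3, a dipeptidase family gene of the testis, stood at 53.0% of its control level and missed the threshold narrowly (adjusted p 0.0571). Dazl and Sohlh2, regulators of germ cell development, were 1.60-fold and 1.63-fold higher but with errors 4.91 and 5.07 times the median of genes of like expression, and did not pass. Adjusted p-values here and below are the deposited p-values of the authors' DESeq2 comparison, adjusted over all 20461 tested genes by the Benjamini-Hochberg method, and a value below 0.05 passes. By this rule 5.45% of all tested genes rose and 4.82% fell, so the 2 rises among 10 members are to be read beside those shares. In the range of means from 100 to 1000, which holds both genes that rose, 9.09% of genes rose and 11.3% fell. In the range from 1000 to 10000, which holds Dazl, Sohlh2, Tex19.1 and Fkbp6, none of the 4 passed, against 5.77% of genes that rose and 5.71% that fell. The members were picked with results of these data known, so no list test was made.

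The promoters of the members were rich in CpG, the dinucleotide that DNA methylation acts on. Counts were made in windows from 250 bases before to 50 bases after each RefSeq start on GRCm38.p6, and the 10 genes have 12 such windows because Stk31 and Fkbp6 have overlapping pairs. The member windows held 12 to 32 CpG sites with a median of 20, against a median of 7 over all 32851 promoter windows. This median counts both windows of Stk31 (29 and 28 sites) and of Fkbp6 (21 and 32). By number of sites the member windows stood at percentiles 60.4 to 90.5 of all windows. Their median ratio of observed to expected CpG was 0.78, against 0.38 over all windows. All 12 member windows held more CpG sites than the median promoter. The windows of the genes that rose, with 14 sites at Tktl2 and 22 at Slc25a31, lay within the range of the others. Dpep3 had the fewest sites, 12, and the downstream window of Fkbp6 the most, 32.

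The 250 bases before the start are shown for the genes that rose (Tktl2, Slc25a31), the gene with the lowest fold change (Dpep3), a highly expressed member with a wide error (Dazl) and the X-linked member (Taf7l). Each reads 5′ to 3′ on the strand of the gene, from RefSeq on GRCm38.p6, with CpG sites in capitals. The windows are chr8:66511490-66511739 (plus strand) for Tktl2, chr3:40708621-40708870 (plus) for Slc25a31, chr8:105979420-105979669 (minus) for Dpep3, chr17:50293621-50293870 (minus) for Dazl and chrX:134476491-134476740 (minus) for Taf7l.
Tktl2: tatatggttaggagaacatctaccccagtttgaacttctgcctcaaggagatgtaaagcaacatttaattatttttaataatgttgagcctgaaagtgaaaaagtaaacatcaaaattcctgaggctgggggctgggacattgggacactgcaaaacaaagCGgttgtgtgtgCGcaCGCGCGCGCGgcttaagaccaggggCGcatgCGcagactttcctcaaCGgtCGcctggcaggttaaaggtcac
Slc25a31: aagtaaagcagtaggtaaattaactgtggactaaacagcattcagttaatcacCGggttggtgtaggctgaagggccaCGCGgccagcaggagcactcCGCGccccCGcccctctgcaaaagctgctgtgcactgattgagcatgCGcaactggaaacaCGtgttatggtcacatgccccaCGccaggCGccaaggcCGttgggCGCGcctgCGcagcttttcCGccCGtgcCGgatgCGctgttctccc
Dpep3: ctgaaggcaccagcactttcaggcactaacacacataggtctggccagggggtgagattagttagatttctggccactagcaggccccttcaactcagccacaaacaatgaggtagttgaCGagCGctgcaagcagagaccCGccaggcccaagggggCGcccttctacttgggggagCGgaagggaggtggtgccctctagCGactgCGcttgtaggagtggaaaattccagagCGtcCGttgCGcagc
Dazl: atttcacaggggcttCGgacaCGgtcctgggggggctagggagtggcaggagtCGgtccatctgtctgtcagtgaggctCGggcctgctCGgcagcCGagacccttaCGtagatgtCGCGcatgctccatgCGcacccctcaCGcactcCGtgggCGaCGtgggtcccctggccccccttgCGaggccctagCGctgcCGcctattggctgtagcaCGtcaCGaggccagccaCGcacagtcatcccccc
Taf7l: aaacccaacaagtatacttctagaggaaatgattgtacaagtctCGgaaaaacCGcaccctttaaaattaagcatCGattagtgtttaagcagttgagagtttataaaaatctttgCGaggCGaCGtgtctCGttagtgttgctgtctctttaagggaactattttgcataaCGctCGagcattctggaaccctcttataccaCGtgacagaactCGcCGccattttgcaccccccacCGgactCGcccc
All 11 sites of the Tktl2 window lie within 89 bases of the start. The 18 sites of Slc25a31 and the 20 sites of Dazl are spread over most of their windows, while the 10 sites of Dpep3 lie within 130 bases of the start.

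**Figure D1:**
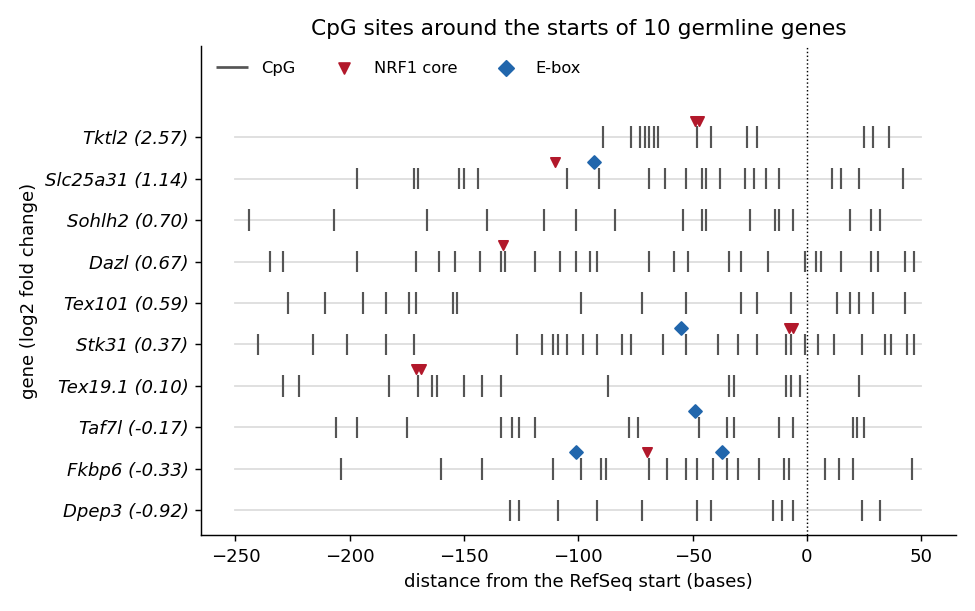
CpG sites (vertical ticks) from 250 bases before to 50 bases after the RefSeq start of each gene, with matches to the NRF1 core (red triangles) and the E-box (blue diamonds). Genes run from the highest log2 fold change (Tktl2, 2.57) at the top to the lowest (Dpep3, -0.92), the upstream window is drawn for Stk31 and Fkbp6, and neither site number nor motif matches separate the 2 genes that rose from the rest.

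The windows were also searched for 3 short motifs on both strands. Each motif contains a CpG, and the share over all windows was not matched for CpG content, in which the member windows are rich. Whether CpG content accounts for the differences in share was not tested. The overlapping windows of Stk31 and Fkbp6 count shared sites more than once. The E-box CACGTG, which MAX-containing complexes such as PRC1.6 bind, was found in 6 of 12 member windows, against 7.15% of all windows. These windows belong to 4 of the 10 genes, Taf7l, Slc25a31, Stk31 and Fkbp6. The E2F6-type motif TTCCCGC, named for another PRC1.6 subunit, was found in 1 of 12, at Slc25a31 and after the start, against 4.60% of all windows. The core GCATGCGC is bound by NRF1, an activator whose binding is known to be blocked by DNA methylation. It was added after the promoters had been read, so its count is only a description. It was found in 8 of 12 windows, against 2.71% of all windows. These windows belong to 6 of the 10 genes, Dazl, Tex19.1, Tktl2, Slc25a31, Stk31 and Fkbp6. At Tktl2 it begins 47 bases before the start, and its reverse complement, beginning 49 bases before the start, overlaps it. At Slc25a31 the core lies 110 and the E-box 93 bases before the start. Slc25a31 holds all 3 motifs, Tktl2 only the NRF1 core, and Dpep3, Tex101 and Sohlh2 none of them. Both genes that rose hold the NRF1 core, as do 4 genes that did not pass.

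Levels are given as mean normalized counts, read counts divided by size factors and averaged over all 6 libraries, in the authors' deposited table. Group levels were derived from this mean and the deposited fold change, and values per library were not analysed here. Read totals per library are unknown, so the precision of each value rests on the error implied by its fold change and p-value. Ehmt2 itself was at 34.7% of its control level (95% interval 29.4% to 41.0%). The table does not name the numerator, and the direction of every fold change was read from this fall, so Ehmt2 does not check the labels independently. All 6 pluripotency markers had mean counts between 19551 and 75421, and none of them passed the test. In these bulk libraries, more cells that express a gene and more RNA per cell cannot be told apart.

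The 10 genes were not uniformly silent in these stem cells. Per kb of annotated exon, Fkbp6 (2323), Dazl (1905), Sohlh2 (1733) and Tex19.1 (1621) had mean normalized counts at percentiles 88.2 to 92.0 of all tested genes with an exon length. Stk31 (232), Dpep3 (157) and Taf7l (98.0) were near the median gene, which stood at 108. Slc25a31 (51.1), Tktl2 (29.6) and Tex101 (24.6) were the lowest, at percentiles 37.9 to 43.8. The label of a silenced class thus describes these genes in somatic cells, and 4 of them were expressed well above the median gene here. The 2 genes that rose were both among the 3 with the lowest levels per kb. Tktl2 had 50.7 normalized counts per kb after Ehmt2 siRNA, against 8.56 after control siRNA, where it was the lowest of the 10. Slc25a31 had 70.2 per kb after Ehmt2 siRNA and 31.9 after control siRNA. Among the 4 highest genes the order is not resolved, since their implied levels per kb ran from 1674 to 2343 after Ehmt2 siRNA and from 1318 to 2585 after control siRNA, with Fkbp6 highest in the control and Dazl highest after Ehmt2 siRNA.

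**Figure D2:**
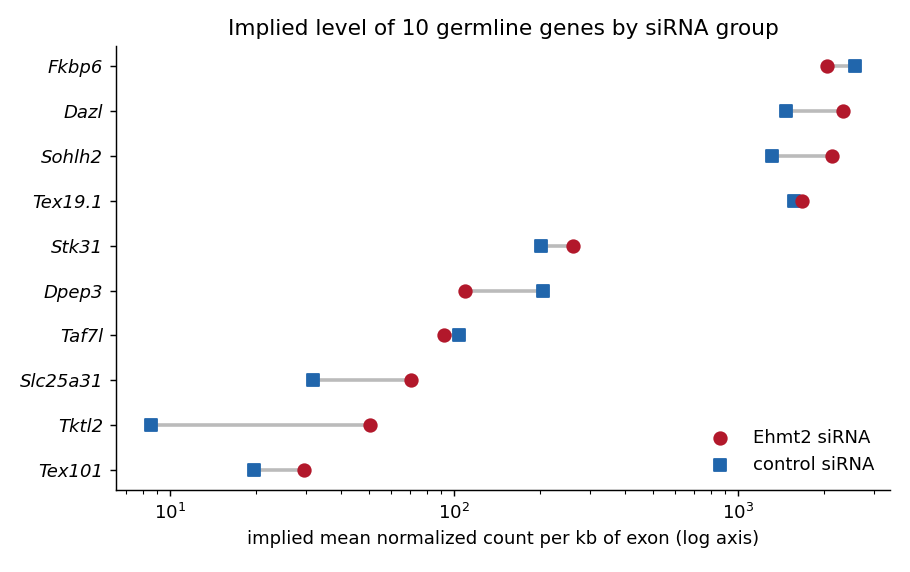
Implied level of each gene per kb of exon (log axis) after Ehmt2 siRNA (red circles) and control siRNA (blue squares), derived from the deposited mean and fold change, with no value per library. Fkbp6, Dazl, Sohlh2 and Tex19.1 lie at 1318 per kb or more in both groups, and Tktl2 shows the widest gap, 50.7 against 8.56.

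Both genes that rose belong to families with roles in metabolism. Tktl2 (chromosome 8, 66511740 to 66519199, GRCm38.p6, plus strand) has at most 2 exons in GENCODE M21. Its implied mean was 282 normalized counts after Ehmt2 siRNA and 47.6 after control siRNA. Its deposited log2 fold change was 2.57, with an implied standard error of 0.21, and the deposited p of 1.51e-34 gave an adjusted p of 1.10e-31. This p ranked 28th of all tested genes. Among 12922 genes with a mean of at least 50, its rise was the 38th largest, and 0.523% of genes with means from 100 to 1000 had a larger log2 fold change. Slc25a31 (chromosome 3, 40708871 to 40726094, plus strand) has 6 exons. Its implied mean was 149 normalized counts after Ehmt2 siRNA and 68.0 after control siRNA, with a log2 fold change of 1.14 ± 0.21 (implied SE) and an adjusted p of 2.96e-06.

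Both genes have relatives that somatic cells use, and none of these passed the test. Tkt, the transketolase of the pentose phosphate pathway, had a log2 fold change of -0.10 (95% interval -0.25 to 0.04) and a level per kb 169 times that of Tktl2. Slc25a4 and Slc25a5, the ADP/ATP carriers of somatic mitochondria, stood at 0.05 (-0.21 to 0.31) and 0.03 (-0.13 to 0.19), with levels per kb 116 and 448 times that of Slc25a31. The log2 fold change of Tktl2 exceeded that of Tkt by 2.67 ± 0.22, and that of Slc25a31 exceeded Slc25a4 by 1.09 ± 0.25 and Slc25a5 by 1.11 ± 0.22, where the errors combine the implied SE of each gene as if independent and no test of the difference was made. Tktl1, the other transketolase-like gene, also rose, 2.16-fold (1.52 to 3.07, adjusted p 4.37e-04). Its level per kb was 29.5, next to 29.6 for Tktl2. The 50-base stretches of the longest Tktl2 and Slc25a31 transcripts occur in no other annotated transcript, so reads of these relatives are not shared with them at that length.

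**Figure D3:**
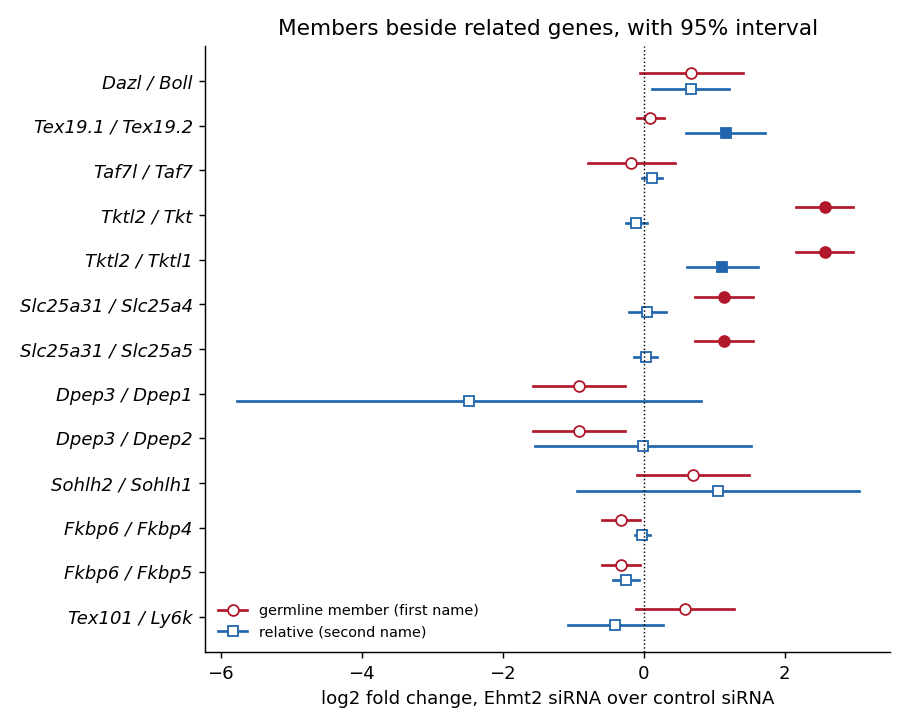
Log2 fold changes, Ehmt2 siRNA over control siRNA, of each member (red circles) and a related gene (blue squares), with 95% intervals implied by the deposited values; filled symbols mark an adjusted p below 0.05. Tktl2 and Slc25a31 lie to the right of Tkt, Slc25a4 and Slc25a5 without overlap of intervals, and Tex19.2 lies to the right of Tex19.1.

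The regulators of germ cell development were highly expressed and did not pass. Dazl (chromosome 17, 50279393 to 50293620, minus strand), which encodes an RNA-binding protein that controls translation in germ cells, had an implied mean of 8949 normalized counts after Ehmt2 siRNA and 5608 after control siRNA. The deposited log2 fold change of 0.67 carried an interval of -0.06 to 1.41 (p 0.0715, adjusted p 0.319). Sohlh2 (chromosome 3, 55182044 to 55209957, plus strand), a basic helix-loop-helix transcription factor of spermatogonia and oocytes, had 5076 after Ehmt2 siRNA and 3117 after control siRNA. Its deposited log2 fold change was 0.70, with an interval of -0.09 to 1.50 (p 0.0822, adjusted p 0.346). Neither is shown to have changed or to have stayed the same, as the intervals run from 96.0% to 265% of the control level for Dazl and from 94.0% to 282% for Sohlh2.

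The implied errors of these genes stood apart from those of genes with like expression. The standard error was 0.37 for Dazl, 4.91 times the median of genes whose means lie within a factor of 1.5, and it exceeded 99.9% of these 2118 genes. For Sohlh2 it was 0.40, 5.07 times the median, above 99.8% of 2646 genes. Of 6756 genes with means from 1000 to 10000, 35 had an error at least as large as that of Dazl and 24 one as large as that of Sohlh2, each count with the gene itself included. The error of a fold change at such means rests mainly on the spread between libraries of a group. Which libraries were high or low cannot be read from the table. Given these errors, Dazl would have needed a fold of 2.07 and Sohlh2 of 2.19 to pass, whereas 1.21-fold would have sufficed for Tex19.1.

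**Figure D4:**
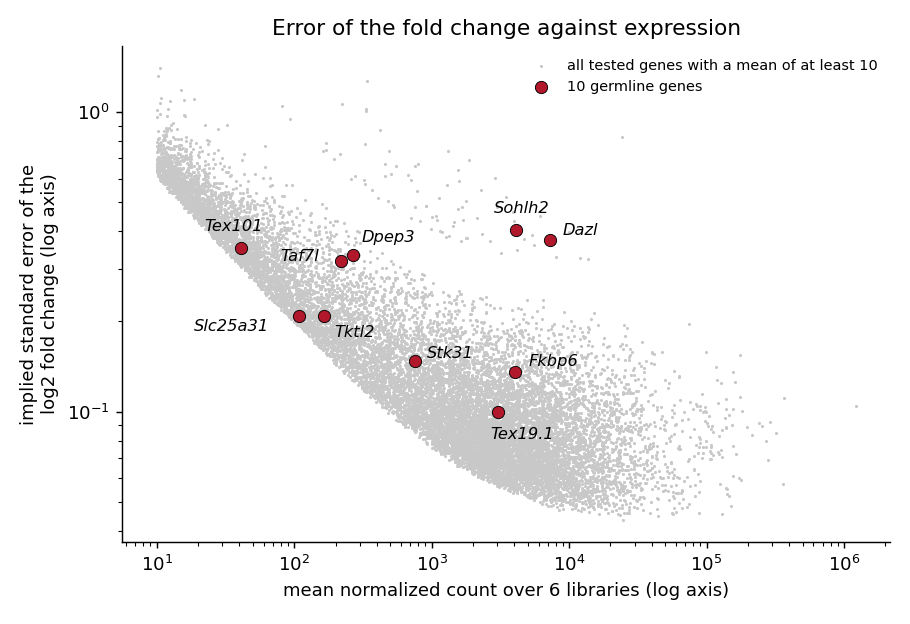
Implied standard error of the log2 fold change (log axis) against mean normalized count (log axis) for all tested genes with a mean of at least 10 (grey) and the 10 germline genes (red). Dazl and Sohlh2 lie far above genes of like mean, at 0.37 and 0.40, while Tktl2, Slc25a31, Tex101, Stk31 and Tex19.1 lie within the main cloud.

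Related regulators were expressed at lower levels. Boll, the second autosomal gene of the Dazl family, had a log2 fold change of 0.67 (0.12 to 1.22, adjusted p 0.123) at a level per kb of 27.0, and Sohlh1, the partner of Sohlh2, stood at 1.05 (-0.95 to 3.06) with a mean of 5.74 normalized counts. Neither passed. Taf7l (chromosome X, 134460116 to 134476505, minus strand), a germ cell counterpart of the TFIID subunit Taf7, had 207 normalized counts after Ehmt2 siRNA and 233 after control siRNA. Its log2 fold change of -0.17 (-0.80 to 0.45, adjusted p 0.927) did not pass. Taf7 had a level per kb 34.7 times as high and a log2 fold change of 0.11 (-0.03 to 0.26).

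Tex19.1, Stk31 and Fkbp6 are further germ cell factors, and none of the 3 passed. Tex19.1 (chromosome 11, 121146143 to 121148314, plus strand), which restrains retrotransposons in mouse germ cells and is also known from embryonic stem cells, had 3135 normalized counts after Ehmt2 siRNA and 2935 after control siRNA. Its log2 fold change of 0.10 had an interval of -0.10 to 0.29 (adjusted p 0.755), with an upper end at 1.22-fold. This interval rests only on the spread between these libraries. Its neighbour and relative Tex19.2, with RefSeq ends 27466 bases apart, rose 2.24-fold (1.52 to 3.30, adjusted p 0.00113), to 119 normalized counts after Ehmt2 siRNA, against 53.1 after control siRNA. The log2 fold change of Tex19.1 was lower than that of Tex19.2 by 1.07 ± 0.30 (errors taken as independent, difference not tested). Of the 50-base stretches of Tex19.1, 2.95% also occur in Tex19.2. The mean of Tex19.1 was 3035 normalized counts, against 86.0 for Tex19.2, so even this share could matter for the Tex19.2 value. Whether shared reads are part of the Tex19.2 value was not tested, and no source used here says how such reads were counted. Stk31 (chromosome 6, 49395506 to 49469506, plus strand), a Tudor domain protein with a kinase-like region, had 847 after Ehmt2 siRNA and 655 after control siRNA, a log2 fold change of 0.37 (0.08 to 0.66). Its deposited p of 0.0120 gave an adjusted p of 0.0938. A pseudogene on the opposite strand, Gm17060, also without a row in the table, lies inside the Stk31 locus and shares 0 exon bases with it. Fkbp6 (chromosome 5, 135291704 to 135351809, minus strand), an FK506-binding protein family member that male mice need for meiosis, had 3614 after Ehmt2 siRNA and 4531 after control siRNA. Its log2 fold change was -0.33 (-0.59 to -0.06, p 0.0166, adjusted p 0.118). Its widely expressed relatives Fkbp4 and Fkbp5, co-chaperones of Hsp90, stood at -0.02 (-0.13 to 0.08) and -0.25 (-0.44 to -0.06), and neither passed.

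The remaining genes encode cell surface proteins. Dpep3 (chromosome 8, 105973520 to 105979419, minus strand) and Tex101 (chromosome 7, 24668012 to 24672050, minus strand) encode GPI-anchored proteins of testicular germ cells that are known to bind each other. Their fold changes had opposite signs and neither passed. Dpep3 had 185 normalized counts after Ehmt2 siRNA and 349 after control siRNA, with a log2 fold change of -0.92 (-1.57 to -0.26, p 0.00610). The error of Dpep3, 0.33, exceeded that of 95.8% of genes of like mean. Dpep3 passed as lower when p-values were adjusted over genes with a mean of at least 10 (adjusted p 0.0434) or at least 50 (0.0420), and not after a trend on GC content was removed (log2 fold change -0.83, adjusted p 0.117). An antisense noncoding gene, Gm45752, spans the whole Dpep3 locus in GENCODE M21 and has no row in the table, and its exons share 119 bases with those of Dpep3, 7.01% of the Dpep3 exon length. No source used here says whether reads were counted by strand, so antisense reads could be part of the Dpep3 value. Tex101 had 49.0 after Ehmt2 siRNA and 32.7 after control siRNA, a log2 fold change of 0.59 (-0.10 to 1.28, adjusted p 0.384). Ly6k, whose protein binds Tex101, stood at -0.41 (-1.08 to 0.27). Dpep1 and Dpep2, relatives of Dpep3, had means of 2.19 and 7.26 normalized counts and did not pass.

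Across the 10 genes, 7 fold changes were above 0 and 3 below, beside 51.1% of all tested genes above 0. The median log2 fold change of the 10 was 0.48, against 0.01 over all tested genes. Before adjustment, at a p under 0.05, 3 were higher (Tktl2, Slc25a31, Stk31) and 2 lower (Dpep3, Fkbp6), beside 10.2% of all tested genes that were higher and 9.54% lower by this rule. The 95% intervals of the other 5 include 0.

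**Figure D5:**
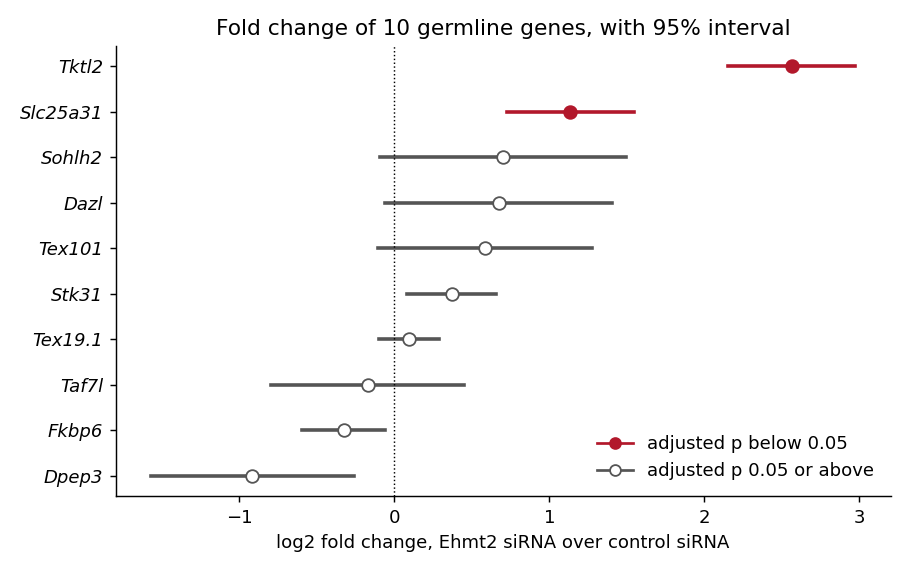
Log2 fold change, Ehmt2 siRNA over control siRNA, of the 10 germline genes with 95% intervals implied by the deposited fold change and p-value; red filled symbols mark an adjusted p below 0.05. Tktl2 (2.57) and Slc25a31 (1.14) pass, Dpep3 (-0.92) is lowest, and the intervals of Dazl and Sohlh2 span more than 1 log2 unit.

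Most of the nearest tested genes on each side of a member did not pass the test. Of 20 such neighbours, 1 rose, 2 fell and 17 did not pass, against 10.3% of all tested genes that rose or fell. Their median log2 fold change was -0.02. Some neighbours, such as Mir7074 and Lypd11 (means of 0.357 and 0.841 normalized counts), had too few counts to pass at any but a very large change. The gene that rose was Tex19.2. Hspa4l, beside Slc25a31 and 18406 bases from it, fell by 0.56 on the log2 scale (adjusted p 0.0401), the opposite direction to Slc25a31, and Intu, on the other side, stood at -0.02 (-0.19 to 0.15). Tma16 and Npy5r, which flank Tktl2, did not pass, with Tma16 at -0.16 (-0.29 to -0.02) and Npy5r at a mean of 0.197 normalized counts. Trim50, which lies 75 bases from the edge of the Fkbp6 RefSeq span at 135351809, fell by 1.03 on the log2 scale (-1.55 to -0.52, adjusted p 0.00193). The starts used for the Fkbp6 promoter windows, 135350044 and 135349913, lie inside that span, so the sequence at this edge was not examined. Fkbp6 was also lower but did not pass. Fam221a, beside Stk31, had a log2 fold change of 0.42 (0.11 to 0.73, adjusted p 0.0659), close to that of Stk31.

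Other germline genes whose promoters are often methylated in somatic cells also rose in part. The list used for these holds 21 genes, among them Dpep2, a relative of Dpep3 whose class was not checked here. Of the 21 genes, 5 rose, 0 fell and 16 did not pass, beside 5.45% rises and 4.82% falls over all genes. Their median log2 fold change was 0.21. In the authors' DESeq2 comparison an unadjusted p under 0.05 was found for 7 higher and 1 lower, beside 10.2% and 9.54% of all tested genes. The genes that rose were Asz1 (6.13-fold), Gtsf1 (2.93-fold), D1Pas1 (2.74-fold), Pdha2 (2.06-fold) and Cyct (1.63-fold). Pdha2 encodes the testis form of a pyruvate dehydrogenase subunit and Cyct the testis cytochrome c, so like Slc25a31 they are germ cell counterparts of mitochondrial proteins. D1Pas1 has close relatives among the Ddx3 genes, with which reads may be shared. Tdrd1 stood at -0.98 and did not pass (adjusted p 0.122). Ddx4, a marker of the germ lineage that Dazl is known to act on, stood at 0.21 (-0.24 to 0.65), and Sycp3, another known target of Dazl, at 0.24 (-0.29 to 0.77). These are RNA levels, and translation, which Dazl controls, was not measured.

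Of 29 regulators of germ cell identity, 6 rose, 0 fell and 23 did not pass, where 5.45% of all tested genes rose and 4.82% fell, and the median log2 fold change was 0.20. At an unadjusted p under 0.05 the DESeq2 comparison of the authors gives 9 higher and 1 lower, beside 10.2% higher and 9.54% lower over all tested genes. Id4, a marker of spermatogonial stem cells, rose 1.70-fold, Nanos3 1.90-fold, Prdm1 1.47-fold, Rhox13 1.36-fold and Kit 1.31-fold. Bmp15, an oocyte growth factor, rose by a log2 fold change of 3.37 at a mean of 5.91 normalized counts, but not once the GC trend was taken out (adjusted p 0.0595). Prdm1, Nanos3, Dnd1, Dppa3 and Ddx4 served as markers of primordial germ cells, with means of 171 to 2993 normalized counts. All 5 were higher, beside 51.1% of all tested genes, and only 2 of them, Prdm1 and Nanos3, passed. Their part in the rises of Tktl2 and Slc25a31 was not tested. Among markers of other cells, Col1a2 rose and 5 of 6 fibroblast genes did not pass, Gata4 fell among 4 primitive endoderm genes, and in the trophectoderm list Krt8 fell and Cdx2 rose, with the other 2 not passing. Mean normalized counts were 0.741 to 15165 in the fibroblast list, 16.2 to 169 in the primitive endoderm list and 3.61 to 1048 in the trophectoderm list, and no marker was at 0. The part of these in the results above was not tested.

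The regulators of DNA methylation and silencing were followed as a list of 16 genes, which holds DNA methyltransferases, PRC1.6 subunits and H3K9 factors and also Tet1, Tet2 and Tet3, enzymes that oxidise methylated DNA and so act against silencing by it. Of the 16, 1 fell and 0 rose, where 4.82% of all tested genes fell and 5.45% rose. The gene that fell was Tet2, by 0.21 on the log2 scale (adjusted p 6.11e-04), and the other 15 did not pass. The DESeq2 comparison of the authors gives 0 higher and 2 lower where p is unadjusted and under 0.05, beside 10.2% and 9.54% of all tested genes. The PRC1.6 subunits E2f6 (-0.17, adjusted p 0.0909), Mga (-0.09) and Max (0.10) did not pass, nor did Cbx3 (0.11) and Uhrf1 (-0.12). Dnmt3b (-0.07, -0.83 to 0.70) and Dnmt3l (0.05, -1.20 to 1.31) had wide intervals, so neither is shown to have stayed the same. Ehmt1, the partner of Ehmt2, stood at -0.05 (-0.22 to 0.11).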

How the data were processed

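RNA from 3 Ehmt2 siRNA and 3 control siRNA libraries was trimmed, aligned and compared by the authors with FastQC, Trimmomatic 0.36, STAR and DESeq2 on mm10 (GRCm38), per the submitters' processing notes. No source used here names the counter, its use of strand or the annotation. The deposited table gives, per the file headers, the signal of each gene as a mean of counts divided by size factors, a log2 fold change and an unadjusted p-value; 4778 genes at 0 have no p.

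From these, Benjamini-Hochberg adjusted p-values were computed over 20461 genes. Standard errors were implied from each fold change and its p under a Wald test, and intervals cover 95%. Group levels assume that the fold change is the ratio of group means. Levels per kb use the union of GENCODE M21 exons (97.2% of tested genes). The code for implied errors and adjusted calls was run on fold changes simulated under the same normal model. That run cannot check the model itself or the other steps. Python 3.11.15, SciPy 1.17.1 and statsmodels 0.14.6 were used.

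Members, gene lists and tests were chosen with earlier results of these data known. Named were all members, their relatives, the called neighbours and up to 6 genes with the smallest p of each list; others were chosen after their values were seen. Lists share Dpep2, Boll, Sohlh1, Ddx4, Dnd1, Dppa3, Nanos3 and Prdm1. Alternatives were 2 filters on the mean, Bonferroni adjustment, a stricter threshold, a minimum fold, a median shift and removal of a GC trend (lowess, fraction 0.3, 97.2% of genes).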

Additional observations from a re-analysis of the deposited data

How the results depend on the processing

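Tktl2 and Slc25a31 rose under every alternative run, which were adjustment over genes with a mean of at least 10 or 50, Bonferroni adjustment, an adjusted p below 0.01, a minimum log2 fold change of 1, a shift by the median and removal of the GC trend. No member changed sign. The number of members that fell was 0, and 1 (Dpep3) when adjusted over genes with a mean of at least 10 and 1 with a mean of at least 50, where fewer genes were tested. With the first filter 1137 of all 15146 genes rose and 1086 fell, and with the second 968 of 12922 rose and 1032 fell. The member counts are to be read beside these. With the latter filter, which drops Tex101, the median log2 fold change of the members was 0.37 in place of 0.48. The E2F6-type motif was found in 0 member windows when only the 250 bases before the start were searched, since its match at Slc25a31 lies after the start. Of the 3 neighbouring genes that passed, 0 did with Bonferroni adjustment. The number of neighbours that passed was 2 at an adjusted p below 0.01 and 2 with a minimum log2 fold change of 1. It was 4 when adjusted over genes with a mean of at least 50 and 4 after removal of the GC trend. The filter at 50 drops neighbours with low means, such as Mir7074 and Lypd11, so its count is not out of all 20 neighbours. Of the 20 genes outside the 10 members that passed among the relatives, neighbours and lists, 10 did not with Bonferroni adjustment (Tex19.2, Tktl1, Cyct, Nanos3, Rhox13, Bmp15, Tet2, Cdx2, Hspa4l and Trim50), 8 fell short of a log2 fold change of 1 (Cyct, Prdm1, Nanos3, Kit, Id4, Rhox13, Tet2 and Hspa4l), 2 did not at an adjusted p below 0.01 (Bmp15, Hspa4l) and 1 did not after removal of the GC trend (Bmp15). Over all genes, 1116 rose and 987 fell, against 891 and 703 after removal of the GC trend, 311 and 212 with Bonferroni adjustment, 726 and 601 at an adjusted p below 0.01, and 429 and 155 when a log2 fold change of 1 or more was also required. No paired analysis was possible because the table holds no value per library, and for the same reason leaving out each replicate and edgeR tests were not run. Depth per library is unknown, so no limit for genes at 0 was computed.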

Other observations

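Wide errors were also found for other germline and DNA methylation genes, chosen after their values were seen. Dppa3, a maternal factor that protects against DNA methylation, had a log2 fold change of 1.10 ± 0.48 (implied SE) and did not pass (adjusted p 0.146), although its mean was 2993 normalized counts. The errors of Dmrt1 (0.44), Stra8 (0.87), Dnmt3b (0.39) and Dnmt3l (0.64) likewise exceeded those of at least 99.6% of genes of like mean. Errors above the 95th percentile for their mean were found for 3 of the 10 members (Dazl, Sohlh2 and Dpep3), 7 of 29 germ cell regulators, 4 of 21 other methylated germline genes and 3 of 16 regulators of DNA methylation and silencing.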
